A study of Mus musculus with 5 samples.

Results

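The subject is the 3 genes of fibrinogen, Fga, Fgb and Fgg, in single-cell RNA-seq of mouse kidneys after ischemia-reperfusion injury (IRI), in which the blood supply of the kidney is stopped and then restored. The 3 genes were chosen by their symbols among 32285 genes in the files and followed through all 18 cell type labels that the authors deposited. Mice 3, 4 and 5 were sampled at day 10 after injury and mice 1 and 2 at 48 h. All 5 kidneys were injured and each mouse gave 1 library, so every comparison is between times after injury and none is with uninjured kidney. The labels give no strain, sex, age, batch or ischemia time. The design text states only that kidneys were profiled at both times after injury.

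Fibrinogen is the soluble clotting protein of blood plasma. It is a dimer in which each side holds an Aα chain (encoded by Fga), a Bβ chain (Fgb) and a γ chain (Fgg), and all 3 chains are needed to assemble and secrete it. Thrombin cuts short peptides from the Aα and Bβ chains, after which fibrin polymerises, and plasmin later dissolves it. Hepatocytes make nearly all plasma fibrinogen, and in the acute-phase response interleukin-6 raises the 3 genes together through STAT3, with C/EBP factors and HNF1 acting at the promoters. The proximal tubule, which reabsorbs most of the filtrate and is the segment most exposed to ischemia, shares HNF1 factors with the liver.

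The 3 genes lie next to each other on chromosome 3 (GRCm38): Fgg at 83007724 to 83015056, Fga at 83026153 to 83033627 and Fgb, on the other strand, at 83042246 to 83049863, so that the cluster spans 42140 bases. The 250 bases before each start are shown because the 3 genes were found in the same cells, while the share of Fgb in their total lay apart between the times. They come from the RefSeq promoter table of build GRCm38.p6, which held all 3 genes, and run 5′ to 3′ on the strand of the gene. Capitals mark CTGGGAA (the core of the IL-6 response element), GTTAAT (an HNF1 half-site) and TTGCNNAA (a C/EBP site), searched on both strands. No matches overlap.
Fga promoter, chr3:83025903-83026152, plus strand: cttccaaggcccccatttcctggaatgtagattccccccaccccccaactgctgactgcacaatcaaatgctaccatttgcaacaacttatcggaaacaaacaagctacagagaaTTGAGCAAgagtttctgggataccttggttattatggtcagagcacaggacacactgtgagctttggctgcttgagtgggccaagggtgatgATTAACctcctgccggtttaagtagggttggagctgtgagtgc
Fgb promoter, chr3:83049864-83050113, minus strand: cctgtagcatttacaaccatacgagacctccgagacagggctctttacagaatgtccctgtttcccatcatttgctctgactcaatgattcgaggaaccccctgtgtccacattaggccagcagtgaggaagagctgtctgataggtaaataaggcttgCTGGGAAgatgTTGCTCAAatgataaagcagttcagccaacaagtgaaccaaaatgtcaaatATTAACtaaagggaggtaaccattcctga
Fgg promoter, chr3:83007474-83007723, plus strand: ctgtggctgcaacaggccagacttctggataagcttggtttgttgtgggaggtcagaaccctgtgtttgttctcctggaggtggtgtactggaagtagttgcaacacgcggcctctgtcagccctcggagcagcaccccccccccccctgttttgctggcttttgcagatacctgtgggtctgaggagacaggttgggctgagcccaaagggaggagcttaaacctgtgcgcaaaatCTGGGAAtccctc
The Fgb window held all 3 motifs, with CTGGGAA starting at -91, TTGCTCAA at -80 and ATTAAC, the HNF1 half-site read on the opposite strand, at -29 from the start of the gene. The Fga window held TTGAGCAA, the C/EBP motif on the opposite strand, at -135 and ATTAAC at -43, and no CTGGGAA. The Fgg window held CTGGGAA at -13 and neither of the other motifs in these letters. Of all 32851 windows of this length in the table, 9.10% held CTGGGAA, 6.43% the HNF1 half-site and 9.56% the C/EBP motif, so a single match is common and describes letters, not binding.

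The libraries held between 3909 and 5912 labelled cells at day 10 and 3720 and 4895 cells at 48 h, 23797 in all. Median depth was 10328.5 to 11750 unique molecular identifiers (UMIs, tagged transcript molecules) per cell at day 10 and 5823 and 6260 at 48 h. Any pair of libraries shared between 3 and 10 cell barcodes. The label of injured proximal tubule cells matched its injury marker: Havcr1, which encodes kidney injury molecule 1, stood at 593 to 789 CPM (UMIs per 1000000 UMIs of the label in 1 mouse) at day 10 and at 798 and 233 CPM at 48 h, against at most 31.4 CPM in the S1 label of any mouse. Mouse 2 stood apart from mouse 1 within that label, with 99 cells against 590, with lower Havcr1 and with higher Lrp2, the endocytic receptor megalin of the healthy proximal tubule (1420 CPM, against 850 CPM in mouse 1). Results that rest on either mouse are therefore given without it as well.

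Fibrinogen transcripts were found almost wholly in the proximal tubule. Its 5 labels held 93.3%, 86.0% and 93.2% of all chain UMIs in mice 3, 4 and 5 at day 10 and 95.1% and 96.0% in mice 1 and 2 at 48 h, with 19.9%, 8.54% and 19.4% of the cells at day 10 and 27.8% and 20.7% at 48 h. The injured label alone held 56.5%, 32.0% and 58.0% of the chain UMIs at day 10 and 81.6% and 22.2% at 48 h. The labels come from the authors' clustering of the same cells, so comparisons between labels are descriptions without a test.

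Fga, which encodes the Aα chain, stood in injured proximal tubule at 337, 206 and 346 CPM in mice 3, 4 and 5 at day 10 and at 404 and 25.1 CPM in mice 1 and 2 at 48 h. Fgb, which encodes the Bβ chain, stood there at 159, 66.9 and 140 CPM at day 10 and at 512 and 25.4 CPM at 48 h. Fgg, which encodes the γ chain, stood at 495, 262 and 526 CPM at day 10 and at 598 and 47.8 CPM at 48 h. For each chain the 2 mice of 48 h were the highest and the lowest of the 5, with the day 10 mice between them.

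**Figure D1:**
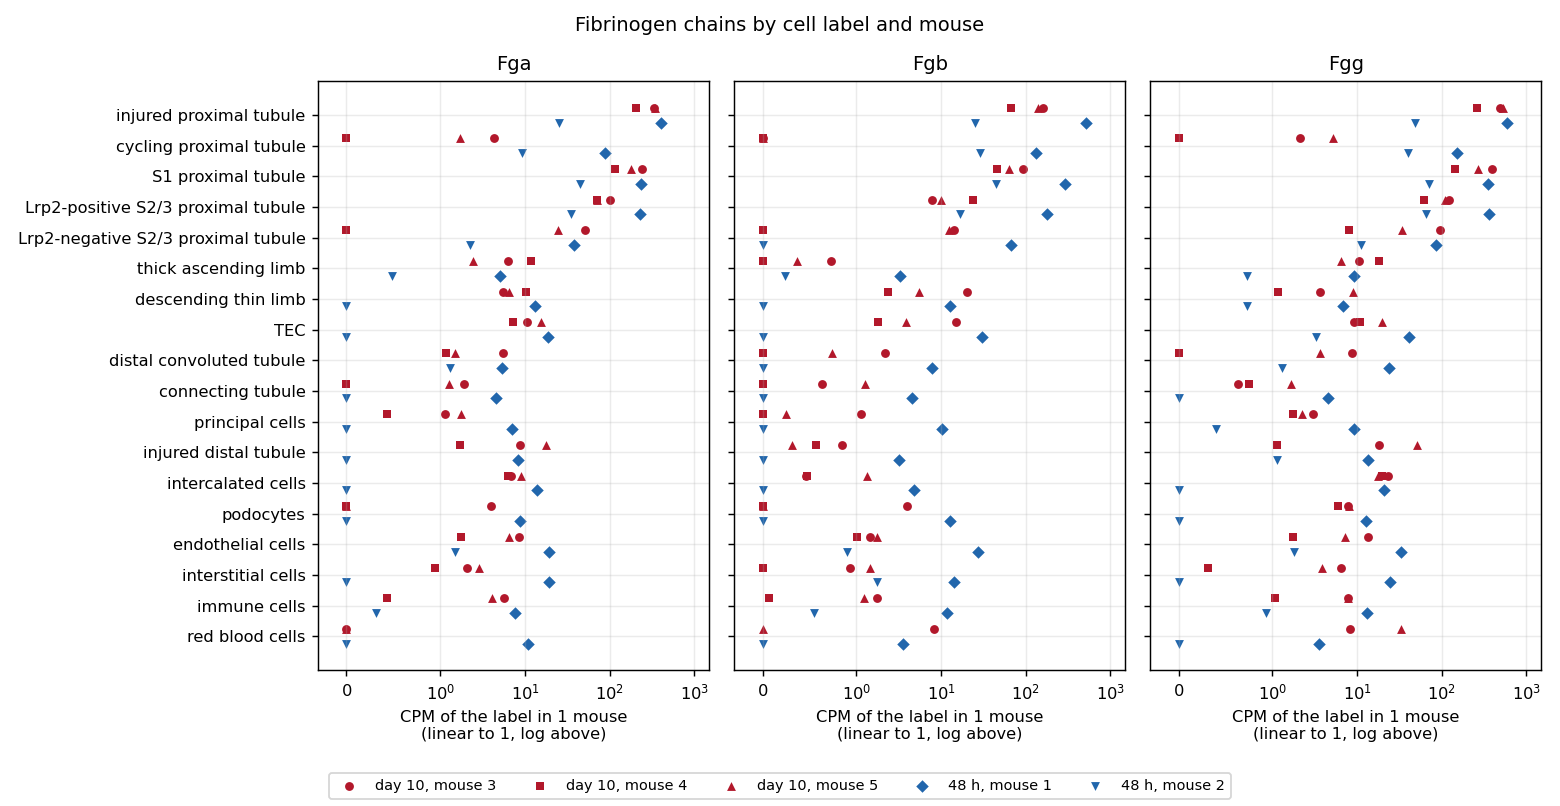
Level of Fga, Fgb and Fgg (horizontal axes, CPM of the label in 1 mouse, linear to 1 and logarithmic above) in the 18 cell labels (vertical axis), with day 10 mice in red above the 48 h mice in blue. In injured proximal tubule Fgg lay at 262 to 526 CPM at day 10 and at 47.8 and 598 CPM at 48 h, and all labels outside the proximal tubule stayed at or below 50.5 CPM.

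S1 cells, the first part of the proximal tubule, were next in level. There Fga stood at 244, 117 and 181 CPM at day 10 and at 233 and 45.0 CPM at 48 h, Fgb at 93.4, 45.5 and 63.4 CPM at day 10 and at 289 and 44.5 CPM at 48 h, and Fgg at 389, 146 and 271 CPM at day 10 and at 355 and 71.5 CPM at 48 h. Injured cells stood above S1 cells for each chain in 4 of 5 mice and below them in mouse 2, and 32.4% of 11636 genes stood above S1 in at least 4 of 5 mice, so this order is common. The ratio of injured to S1 ran over the mice between 0.558 and 1.92 for Fga, 0.572 and 2.20 for Fgb and 0.669 and 1.94 for Fgg. The neighbours in this order therefore overlap over mice.

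Lrp2-positive S2/3 cells, the later proximal tubule, held Fga at 101, 70.8 and 70.6 CPM at day 10 and at 226 and 35.2 CPM at 48 h. Fgg was at 123, 62.2 and 110.9 CPM there at day 10 and at 366 and 64.7 CPM at 48 h. Fgb was at 7.77, 23.9 and 10.0 CPM in this label at day 10 and at 178 and 16.9 CPM at 48 h, so the times overlapped. The Lrp2-negative S2/3 cells held at most 96.6 CPM of any chain in any mouse. Cells labelled as cycling proximal tubule had no Fgb UMI in any of the 3 mice at day 10, among 34, 18 and 35 cells in mice 3, 4 and 5, and 133 and 29.0 CPM at 48 h. A count of 0 allows up to 6.39, 14.96 and 5.14 CPM at day 10 (3 UMIs per mouse, counting error only). The 12 proximal tubule markers summed to 339, 204 and 326 CPM in this label at day 10 and to 5102 and 9992 CPM at 48 h, so its name is poorly matched by its markers at day 10.

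In the 13 labels outside the proximal tubule, Fga ran between 0 and 17.7 CPM at day 10 and 0 and 19.4 CPM at 48 h, Fgb between 0 and 20.5 CPM at day 10 and 0 and 30.2 CPM at 48 h, and Fgg between 0 and 50.5 CPM at day 10 and 0 and 40.6 CPM at 48 h. All 3 chains were higher in injured proximal tubule than in each of the 8 tubule labels outside the proximal tubule in every mouse, mouse 2 included, as was the case for 6.68% of 11636 genes. S1 cells also stood above each of them in every mouse for all 3 chains, against 7.98% of genes. Lrp2-positive S2/3 cells did so for Fga and Fgg and not for Fgb, against 7.46% of genes.

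Markers of the liver and of platelets, the other cells known to hold fibrinogen or its transcripts, were looked for beside these levels. Ahsg, which encodes the plasma protein fetuin-A of hepatocytes, had 0 UMIs in injured proximal tubule of all 5 mice. Alb, which encodes albumin, had 64 UMIs there in all (1.85 CPM) and Apoa1, an apolipoprotein of liver and gut, had 31. The summed level of the 14 hepatocyte markers was 276 to 646 CPM at day 10 and 422 and 462 CPM at 48 h in injured cells, and 468 to 533 CPM at day 10 and 510 and 521 CPM at 48 h in S1 cells. Ahsg, Alb and Apoa1 made up little of these sums. In Lrp2-positive S2/3 cells the sum was 346 to 1047 CPM at day 10 and 651 and 863 CPM at 48 h. In immune cells it was 3.30 to 19.1 CPM at day 10 and 9.87 and 11.98 CPM at 48 h. The source of the other markers was not tested. At most 10 of the 14 markers were detected in injured cells of any mouse. Ppbp, a platelet chemokine, had 0 UMIs in injured cells, Pf4 had 93, and the 8 platelet markers summed to 3.94 to 10.1 CPM at day 10 and to 4.06 and 7.97 CPM at 48 h.

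The chains were also counted as the share of cells with at least 1 UMI. In injured proximal tubule 63.0%, 27.1% and 55.0% of cells held Fga at day 10 and 74.9% and 31.3% at 48 h. Fgb was held by 38.7%, 10.4% and 33.1% at day 10 and by 75.1% and 14.1% at 48 h. Fgg was held by 58.7%, 25% and 54.2% at day 10 and by 80.0% and 35.4% at 48 h. The times overlapped for each chain, with mouse 1 highest and the lowest value in mouse 4 for all 3, and the exact two-sided permutation p was 0.8 for Fga and 0.6 for Fgb and Fgg, where 0.2 is the smallest that 3 mice against 2 can give.

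Free RNA in the droplets gives UMIs to cells that do not express a gene, so shares were also taken with every cell thinned to 2000 UMIs and set beside immune cells. Any chain was then seen in 45.1%, 19.6% and 39.3% of injured cells at day 10 and in 68.0% and 14.3% at 48 h. In S1 cells the thinned shares were 44.6%, 22.5% and 34.2% at day 10 and 65.7% and 19.2% at 48 h. Immune cells, whose median depth before thinning was 9737 to 14560.5 UMIs at day 10 and 5419 and 6463 at 48 h against 26787 to 28149 and 17739 and 32039 in injured cells, held any chain in 3.11%, 0.478% and 2.94% at day 10 and in 7.34% and 0.611% at 48 h. The immune share was highest in the mouse with the highest tubule level, mouse 1. Other labels outside the proximal tubule held both less and more. In mouse 1 they ran from 0% in connecting tubule to 16.7% in distal convoluted tubule and 17.5% in the tubule label TEC. In mouse 3 TEC held 9.41%. Thinning left out between 1 and 4 injured cells per mouse at day 10 and 21 and 1 at 48 h.

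The chains occurred in the same cells. All 3 were found together in 33.8%, 10.4% and 29.5% of injured cells at day 10 and in 63.4% and 10.1% at 48 h. The number of such cells was 1.99, 4.07 and 2.10 times the number expected from the single shares within cells of like depth at day 10, and 1.25 and 3.68 times at 48 h. In immune cells this ratio was 34.5, 0 and 70.7 at day 10 and 13.9 in mouse 1 at 48 h. These values rest on 4, 0, 3 and 5 cells with all 3 chains. An excess thus also occurred in a label with few chain UMIs, and its source was not tested. In S1 cells all 3 chains were found in 22.7%, 13.7% and 19.4% at day 10 and in 37.3% and 12.4% at 48 h. In Lrp2-positive S2/3 cells the shares were 3.50%, 4.50% and 6.29% at day 10 and 35.4% and 11.7% at 48 h. Here every day 10 mouse lay below both 48 h mice. How often other genes part the times in this way was not counted. Cells were not thinned for these shares, and the mean depth of this label was no lower at day 10 than at 48 h.

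**Figure D2:**
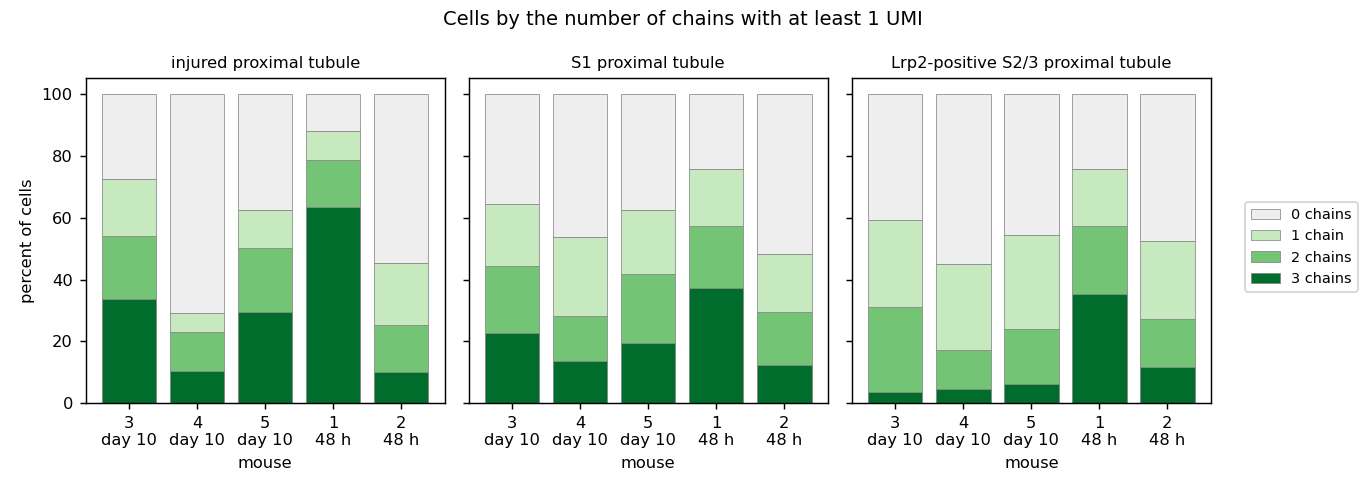
Percent of cells (vertical axis) with UMIs of 0, 1, 2 or 3 of the chains in each mouse (horizontal axis, day 10 left of 48 h) for injured, S1 and Lrp2-positive S2/3 proximal tubule. The share of injured cells with all 3 chains was 10.4% to 33.8% at day 10 and 10.1% and 63.4% at 48 h.

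Chain UMIs per injured cell varied widely. The median injured cell had 4, 0 and 2 chain UMIs in mice 3, 4 and 5 at day 10 and 14 and 0 in mice 1 and 2 at 48 h. The highest cell had 545, 251 and 478 chain UMIs at day 10 and 565 and 47 at 48 h. The 10% of injured cells with the most chain UMIs held 59.4%, 88.2% and 63.3% of the label's total at day 10 and 48.6% and 72.3% at 48 h.

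The time effect was tested with edgeR's quasi-likelihood test on UMIs summed per mouse, with Benjamini-Hochberg adjustment over all genes tested. No chain passed an adjusted p of 0.05 in any cell set, while 5.88% of 12353 genes passed in injured proximal tubule, 3.22% of 13899 in all proximal tubule labels, 2.9% of 12122 in proximal tubule without the injured and cycling labels and 1.83% of 17507 in all cells of a library. In injured cells Fga averaged 296 ± 78.0 CPM at day 10 and 215 ± 268 CPM at 48 h (SD, n = 3 and 2 mice), with a log2 fold change of 0.05 (SE 0.84, edgeR adjusted p = 0.980). Fgg averaged 428 ± 144 CPM at day 10 and 323 ± 389 CPM at 48 h (SD, n = 3 and 2), with a log2 fold change of -0.0013 (SE 0.81, edgeR adjusted p = 0.999). Fgb averaged 122 CPM at day 10 and 269 CPM at 48 h, with a log2 fold change of -1.53 (SE 0.91, edgeR adjusted p = 0.311).

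In all proximal tubule labels together the log2 fold change was -0.36 for Fga (edgeR adjusted p = 0.824), -2.06 for Fgb (SE 0.91, edgeR adjusted p = 0.236) and -0.45 for Fgg (edgeR adjusted p = 0.772). Without the injured and cycling labels Fgb was at 37.8 ± 6.28 CPM at day 10 and 126 ± 137 CPM at 48 h (SD, n = 3 and 2), and its log2 fold change was -1.80 (SE 0.64, edgeR adjusted p = 0.206), beside 0.01 for Fga and -0.18 for Fgg. Among the 4 proximal tubule labels fitted, the largest fold was that of Fgb in Lrp2-positive S2/3 cells, -2.95 on the log2 scale (SE 0.81, edgeR adjusted p = 0.128), where 1.07% of 10538 genes passed. The cycling label, with 18 cells in mouse 4, was not fitted. Among the other cell sets in which a chain was tested, the share of genes called was 2.82% in S1, 1.43% in Lrp2-negative S2/3, 10.4% in thick ascending limb, 5.12% in descending thin limb, 0.525% in TEC, 0.199% in injured distal tubule, 0.238% in intercalated, 0.328% in endothelial, 7.44% in interstitial and 19.2% in immune cells, and 0.00774% in distal tubule and principal cells together. Of these sets, S1, descending thin limb and immune cells gave a test of Fgb. It did not pass the filter on low counts in the others, and Fga did not pass it in TEC or interstitial cells. No chain had a test in principal, connecting tubule or distal convoluted tubule cells as single labels. Cells of other types can lend their transcripts to a label, and markers of immune cells moved with time in the injured label, where the 8 markers summed to 330 to 892 CPM at day 10 and to 46.5 and 69.3 CPM at 48 h, while the 12 proximal tubule markers summed to 4400 to 7928 CPM at day 10 and to 7827 and 13125 CPM at 48 h. Their part in the result was not tested.

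The injured label's time effect exceeded that of the other proximal tubule labels by 0.48 for Fga, 0.66 for Fgb and 0.61 for Fgg on the log2 scale, and none of these differences passed (edgeR adjusted p = 0.479, 0.338 and 0.296), against 7.54% of 12819 genes.

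These fold changes turn on which 48 h mouse is used. Without mouse 1 the log2 fold change in injured cells was 3.16 for Fga (SE 0.47, edgeR adjusted p = 0.0153), 1.89 for Fgb (SE 0.56, edgeR adjusted p = 0.0830) and 2.76 for Fgg (SE 0.53, edgeR adjusted p = 0.0308). Without mouse 2 it was -0.86 for Fga (edgeR adjusted p = 0.305), -2.45 for Fgb (SE 0.43, edgeR adjusted p = 0.0562) and -0.89 for Fgg (edgeR adjusted p = 0.358). In proximal tubule without the injured and cycling labels, Fgb without mouse 2 was at -2.62 (SE 0.22, edgeR adjusted p = 0.00820). In all proximal tubule labels Fgb without mouse 2 was at -2.97 (edgeR adjusted p = 0.0392), and in S1 cells at -2.24 (edgeR adjusted p = 0.0254). The difference between the injured label and the other proximal tubule labels was 1.47 for Fgg without mouse 1 (edgeR adjusted p = 0.0418). Outside these sets, without mouse 1 Fgg was at 3.60 in thick ascending limb (SE 0.75, edgeR adjusted p = 0.0214). In Lrp2-negative S2/3 cells without mouse 1, Fga was at 3.69 (SE 1.12, edgeR adjusted p = 0.0456) and Fgg at 2.35 (SE 0.62, edgeR adjusted p = 0.0114). Without mouse 2 Fgb was tested in 2 labels in which it had no test with all mice, at -2.56 in Lrp2-negative S2/3 cells (SE 0.53, edgeR adjusted p = 0.000283) and at -3.22 in thick ascending limb (SE 0.75, edgeR adjusted p = 0.0492). With a single 48 h mouse the fit takes its spread from the day 10 mice.

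**Figure D3:**
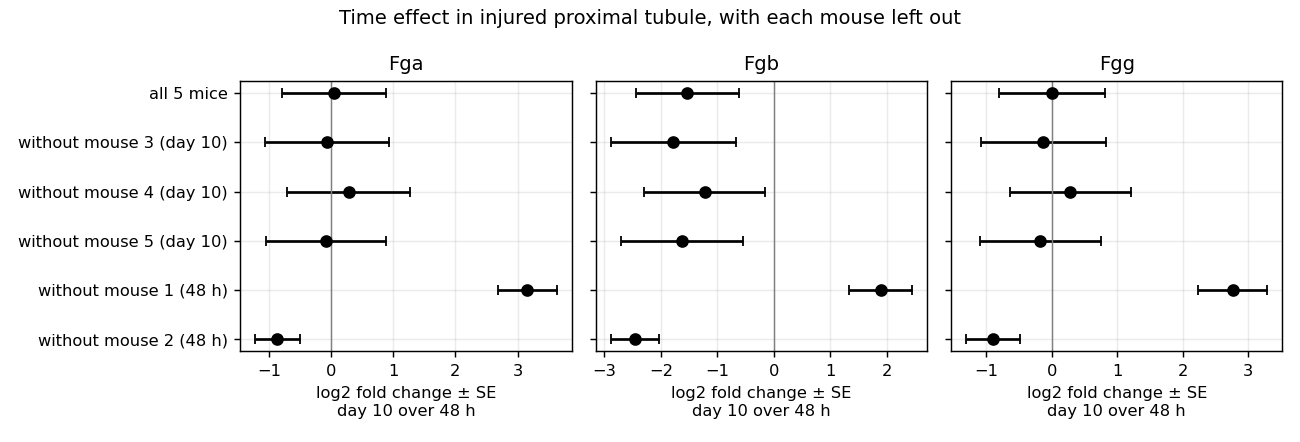
Log2 fold change of day 10 over 48 h in injured proximal tubule (horizontal axes, points with bars of 1 SE) for Fga, Fgb and Fgg, with all 5 mice and with each mouse left out (vertical axis). Leaving out mouse 1 gave 3.16, 1.89 and 2.76 and leaving out mouse 2 gave -0.86, -2.45 and -0.89, while leaving out a day 10 mouse gave -0.08 to 0.29 for Fga, -1.78 to -1.22 for Fgb and -0.18 to 0.29 for Fgg.

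The mix of the chains lay apart between the times, while their levels overlapped. Fgb made up 16.1%, 12.5% and 13.8% of the chain UMIs of injured cells at day 10 and 33.8% and 25.9% at 48 h. The means were 14.1% ± 1.81 at day 10 and 29.8% ± 5.63 at 48 h (SD, n = 3 and 2 mice). The times did not overlap, mouse 1 and mouse 2 lay on the same side in spite of their different levels, and the exact two-sided permutation p was 0.2, the smallest this design allows. The ratio of a gene to the sum of Fga and Fgg was lower in every day 10 mouse than in both 48 h mice for 2.79% of the other 12350 genes in injured cells and for 0.72% of 13896 in all proximal tubule labels. As CPM this sum was highest in mouse 1, so a gene of steady CPM had its lowest ratio there and could not be counted. Both percentages are therefore low by construction and do not show how rare the Fgb shift is. A UMI counts a tagged 3′ end, so the shares of the chains do not depend on transcript length but can depend on how well each gene is captured, which was not measured.

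S1 cells gave the same order, with Fgb at 12.9%, 14.8% and 12.3% of the chain UMIs at day 10 and at 32.9% and 27.6% at 48 h. All 5 proximal tubule labels together gave 13.8%, 14.0% and 12.5% at day 10 and 33.4% and 23.4% at 48 h. In Lrp2-positive S2/3 cells the times overlapped, with 3.35%, 15.2% and 5.23% at day 10 and 23.1% and 14.5% at 48 h. The share taken by Fga in injured cells was 34.0%, 38.5% and 34.2% at day 10 and 26.7% and 25.5% at 48 h, also without overlap. In the same cells Fgg took 49.96%, 48.97% and 52.0% at day 10 and 39.5% and 48.6% at 48 h. The chain shares are parts of the same total, so a lower Fgb share raises the sum of the others by arithmetic. The Fga shares therefore cannot be read as a difference separate from that of Fgb.

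**Figure D4:**
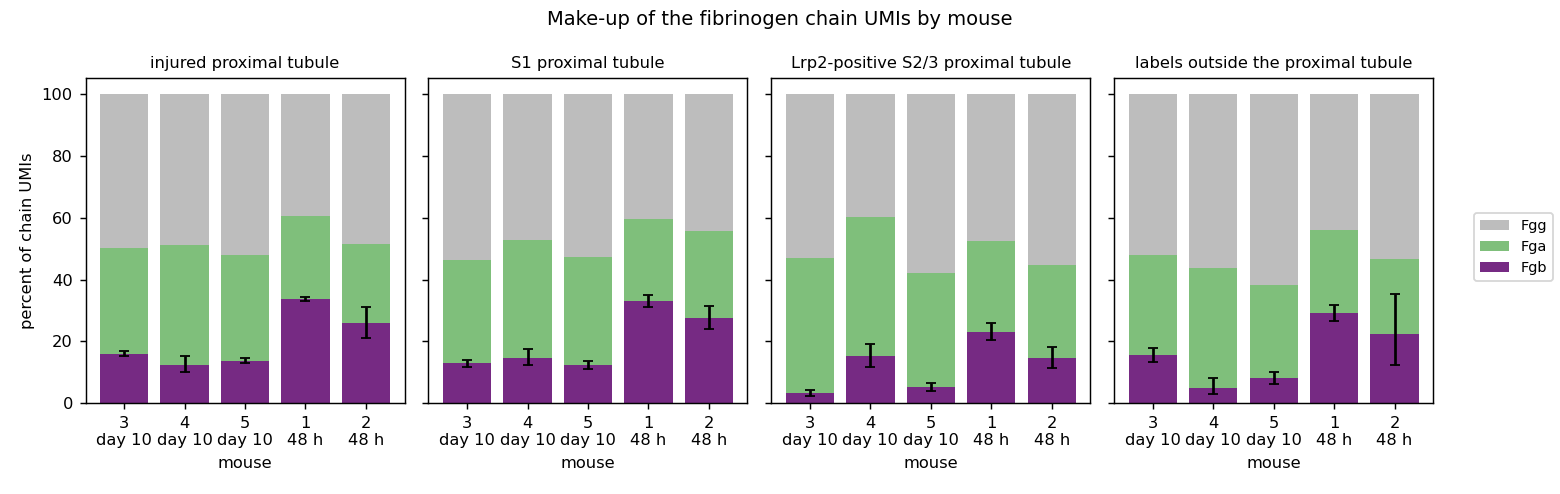
Percent of the chain UMIs (vertical axes) from Fgb, Fga and Fgg in each mouse (horizontal axes, day 10 left of 48 h) for 3 proximal tubule labels and for the labels outside it, with exact 95% binomial intervals on Fgb that cover counting error only. In injured cells Fgb took 12.5% to 16.1% at day 10 and 25.9% and 33.8% at 48 h.

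The Fgb share was also read in cells grouped by their UMIs of the other chains, Fga plus Fgg. Injured cells with 5 to 19 such UMIs had Fgb at 18.0% in mouse 3 and 8.75% in mouse 5 at day 10, and at 37.4% in mouse 1 and 28.6% in mouse 2 at 48 h. Injured cells with 50 or more had Fgb at 16.7% in mouse 3 and 15.2% in mouse 5 at day 10, and at 31.9% in mouse 1 at 48 h. Among cells with 1 to 4 such UMIs the times overlapped, with 18.9% and 14.4% in mice 3 and 5 at day 10 and 50.9% and 10.9% in mice 1 and 2 at 48 h. The mouse 2 value rests on 64 chain UMIs.

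**Figure D5:**
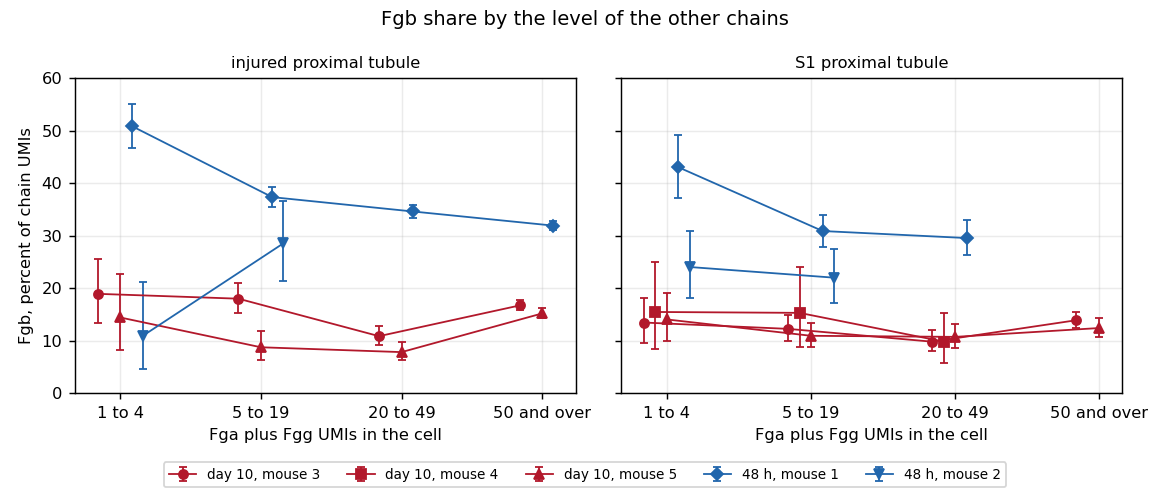
Fgb as a percent of the chain UMIs (vertical axes) in injured and S1 cells grouped by their Fga plus Fgg UMIs (horizontal axes), 1 line per mouse, with exact 95% binomial intervals that cover counting error only and groups of under 5 cells left out. In S1 cells with 5 to 19 such UMIs Fgb took 10.9% to 15.3% at day 10 and 22.0% and 30.9% at 48 h.

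The mitochondrial share of UMIs, a sign of RNA quality and of cell type, moved with the times within the injured label. Its median was 16.9%, 9.29% and 15.3% at day 10 and 21.8% and 23.8% at 48 h. When only cells under 20% were kept, Fgb took 19.1%, 12.6% and 13.6% of the chain UMIs of injured cells at day 10 and 32.5% and 5.71% at 48 h, the last from 2 Fgb UMIs of 35 in 27 cells of mouse 2. In all proximal tubule labels together the same filter left 16.3%, 16.3% and 13.01% at day 10 and 32.1% and 24.8% at 48 h, without overlap.

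A few distal cells held Fga and Fgg without Fgb. Among thick ascending limb and distal cells, 16 had at least 10 chain UMIs together with proximal tubule markers under 10% of the proximal tubule median, 13 of them at day 10 and 3 at 48 h. They carried the labels of injured distal tubule (7 cells), thick ascending limb (6) and intercalated cells (3). They held 110 Fga, 0 Fgb and 241 Fgg UMIs. The 0 of 351 allows an Fgb share of up to 1.05% (upper exact 95% bound, counting error only). Umod, which encodes uromodulin of the thick ascending limb, was found in all 16 cells and Lrp2 in 3. The Umod counts ran from 1 to 542 UMIs, with 1, 2, 3 and 7 UMIs in the lowest cells. Free RNA can give such low counts, so they do not show the type of these cells. Injured proximal tubule cells with 10 to 50 chain UMIs, mice pooled, had Fgb at 8.80% of these UMIs at day 10 and at 34.8% at 48 h. At most 9 of these 217 cells at 48 h came from mouse 2. Cells without Fgb were also common in that label outside mouse 1. Of injured cells with 5 to 19 Fga plus Fgg UMIs, 45% held Fgb in mouse 3 and 41.0% in mouse 5 at day 10. At 48 h the share was 87.5% of 160 cells in mouse 1 and 45.5% of 11 cells in mouse 2, so the times differed only through mouse 1. With 20 to 49 such UMIs, 76.5% and 63.0% held Fgb in mice 3 and 5, and every cell did in mouse 1. Mouse 2 had under 5 cells in that group, and mouse 4 had under 5 in both. With a minimum of 5 chain UMIs there were 50 such distal cells, in which 5 of 572 chain UMIs were Fgb. This group was chosen after its values were seen and was not tested.

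The Fgb share also varied between whole labels outside the proximal tubule. In injured distal tubule Fgb took 3.06% of the chain UMIs in mouse 3 and 0.461% in mouse 5 at day 10, and 12.8% in mouse 1 at 48 h. This label includes cells of the group above, 2 in mouse 3 and 5 in mouse 5, so its values are not separate from that group. The 10% of its cells with the most chain UMIs held 86.7% of the total in mouse 3 and 91.2% in mouse 5. The intercalated label also includes cells of that group, in mice 1 and 5. In intercalated cells Fgb took 1.52%, 1.82% and 4.71% at day 10 and 12.3% in mouse 1 at 48 h. The mouse 4 value there rests mainly on 1 cell, which held 51 of the 55 chain UMIs. In immune cells it took 11.3%, 4.55% and 9.40% in mice 3, 4 and 5 at day 10, of which mouse 4 had only 44 chain UMIs, and 36.3% in mouse 1 at 48 h. In descending thin limb of mouse 3 Fgb took 69.2% of 107 chain UMIs, but 64 of these UMIs lay in 1 cell. The other thin limb values were 17.1% and 26.2% in mice 4 and 5 at day 10 and 38.6% in mouse 1 at 48 h. In mouse 5, 40 of the 65 chain UMIs lay in 1 cell.

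Injured cells with a chain UMI were set beside injured cells without one at 2000 UMIs per cell in mice 1, 3 and 5, as a description with no test since these groups were made from the cells' own values. Of 5014 genes, 8.44% were higher in cells with a chain in all 3 mice and 29.3% were lower in all 3. Of 12 tubule injury genes measured, 7 were lower in all 3 mice and 1, Plin2 of the lipid droplet coat, was higher. Vcam1, an adhesion molecule of maladapted tubule cells, stood at 190 CPM in cells with a chain and 653 CPM in cells without one in mouse 3, at 304 and 437 CPM in mouse 5 and at 23.3 and 57.7 CPM in mouse 1. Cd44, the hyaluronan and osteopontin receptor, stood at 21.9 CPM with a chain and 110.8 CPM without one in mouse 3, at 20.6 and 123 CPM in mouse 5 and at 1.29 and 8.24 CPM in mouse 1.

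Among 12 proximal tubule markers measured, 2 were higher in cells with a chain in all 3 mice, Slc5a2 and Slc22a6, and 1, Slc7a13, was lower. The other markers went different ways in different mice. Slc5a2, the glucose transporter SGLT2 of S1 cells, stood at 164 CPM with a chain and 123 CPM without one in mouse 3, at 345 and 113.3 CPM in mouse 5 and at 189 and 140 CPM in mouse 1. Lrg1, an acute-phase glycoprotein driven by STAT3, stood at 36.5 CPM with a chain and 21.0 CPM without one in mouse 3, at 36.1 and 3.33 CPM in mouse 5 and at 120 and 44.0 CPM in mouse 1. Of the 5 acute-phase genes measured, Lrg1 and Cfb, which encodes complement factor B, were higher in all 3 mice. Cp, which encodes the copper carrier ceruloplasmin, was lower in all 3, at 310 CPM with a chain and 862 CPM without one in mouse 3, 284 and 680 CPM in mouse 5 and 111.1 and 112.6 CPM in mouse 1. Lcn2 was lower in mice 3 and 5 and higher in mouse 1. Of 6 fibrinolysis genes measured 4 were lower in all 3 mice, among them Plat, which encodes tissue plasminogen activator. Plat stood at 18.2 CPM with a chain and 165 CPM without one in mouse 3, at 10.3 and 170 CPM in mouse 5 and at 12.9 and 35.7 CPM in mouse 1. Median mitochondrial shares were higher in cells with a chain, at 22.9% against 11.9% in mouse 3, 20.8% against 10.6% in mouse 5 and 22.1% against 21.2% in mouse 1. Median depth before thinning was also higher in cells with a chain. It was 32340 against 25514 UMIs in mouse 3, 32474 against 25596.5 in mouse 5 and 19516 against 16390.5 in mouse 1. The part of mitochondrial share and depth in the differences was not tested.

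S1 cells, split in the same way in the same mice, gave another count. Of 3924 genes, 11.4% were higher in S1 cells with a chain in all 3 mice and 18.6% were lower in all 3. Of 7 tubule injury genes measured 1 was higher in all 3, Spp1, which encodes osteopontin, and 1 was lower, Clu, which encodes clusterin. Spp1 stood at 11633 CPM with a chain and 6213 CPM without one in mouse 3, at 15403 and 7848 CPM in mouse 5 and at 34699 and 26669 CPM in mouse 1. Of 5 fibrinolysis genes 1 was higher in all 3, Serpinf2, and 1 was lower, S100a10. Of 11 proximal tubule markers none was higher and 3 were lower in all 3 mice, unlike in injured cells. Of 5 transcription factors known to drive fibrinogen genes in liver none was higher and 2 were lower. In injured cells 1 of 6 such factors was higher and 1 was lower. Of 4 acute-phase genes measured in S1 cells 1 was higher and none was lower. The difference between injured and S1 cells was not tested.

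Genes around fibrinogen were tested between the times with the same edgeR fits. Of all genes 2.76% were called higher and 3.12% lower at day 10 in injured proximal tubule, 1.28% higher and 1.94% lower in all proximal tubule labels, and 0.602% higher and 2.29% lower without the injured and cycling labels. Of 14 tested genes of the IL-6 family and STAT3 signalling none passed in injured proximal tubule (median log2 fold change 0.29, beside 0.04 over all genes), and of 15 none passed in all proximal tubule labels (median 0.11, beside 0.03). Stat3 itself stood at 80.3, 70.1 and 67.8 CPM in injured cells at day 10 and at 54.7 and 19.9 CPM at 48 h (log2 fold change 0.50, SE 0.37, edgeR adjusted p = 0.404). Jak1, the most abundant member, was at 132 CPM at day 10 and 108 CPM at 48 h in injured cells. Its log2 fold change was -0.13 (SE 0.23, edgeR adjusted p = 0.756). The fits scale the libraries with TMM factors and the CPM means do not, so their directions can differ, as here.

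Of 9 tested transcription factors known to drive fibrinogen genes in liver none passed in either set (median log2 fold change 0.40 in injured cells and -0.04 in all proximal tubule labels). Hnf4a, a nuclear receptor of liver and proximal tubule, averaged 141 CPM at day 10 and 176 CPM at 48 h in injured cells (log2 fold change -0.72, SE 0.24, edgeR adjusted p = 0.106). Cebpb, a C/EBP factor of the acute-phase response, stood at 151, 106 and 84.4 CPM at day 10 and at 64.1 and 27.9 CPM at 48 h (log2 fold change 0.86, SE 0.38, edgeR adjusted p = 0.192). The times did not overlap for Cebpb, as for 60.5% of genes in this set.

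Other acute-phase genes gave 2 rises and no fall among 11 tested in injured cells. Cp rose to 525 CPM at day 10, against 74.98 CPM at 48 h (log2 fold change 2.35, SE 0.48, edgeR adjusted p = 0.0372). Saa3, a serum amyloid A protein, averaged 3.08 CPM at day 10 and 0.138 CPM at 48 h (log2 fold change 3.42, edgeR adjusted p = 0.0474), and was the only 1 of 13 to pass in all proximal tubule labels, where it rose with a log2 fold change of 2.44 (edgeR adjusted p = 0.0487). In proximal tubule without the injured and cycling labels 2 of 9 fell and none rose. Saa1 was at 0.160 CPM at day 10 and 5.15 CPM at 48 h (log2 fold change -4.75, edgeR adjusted p = 0.00796), and Lrg1 at 4.06 CPM at day 10 and 21.7 CPM at 48 h (log2 fold change -2.42, edgeR adjusted p = 0.0475).

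Fibrinolysis genes gave 3 rises and no fall among 11 tested in injured cells, with a median log2 fold change of 1.08. Plat rose to 204 CPM at day 10, against 8.64 CPM at 48 h (log2 fold change 3.89, SE 0.80, edgeR adjusted p = 0.0377). Thbs1, which encodes thrombospondin 1, a protein that binds plasminogen and fibrin, rose to 45.0 CPM at day 10, against 1.01 CPM at 48 h (log2 fold change 4.39, SE 0.90, edgeR adjusted p = 0.0365), and was the only 1 of 11 to rise in all proximal tubule labels (log2 fold change 3.39, edgeR adjusted p = 0.0480). In proximal tubule without the injured and cycling labels Plau, which encodes urokinase, was the only 1 of 9 to pass and rose to 47.0 CPM at day 10, against 15.7 CPM at 48 h (log2 fold change 1.48, edgeR adjusted p = 0.0351).

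Of 12 coagulation genes tested in injured cells 1 rose, F2r, the thrombin receptor PAR1, to 11.3 CPM at day 10, against 0.413 CPM at 48 h (log2 fold change 3.50, SE 0.76, edgeR adjusted p = 0.0408), and none of 15 passed in all proximal tubule labels, where Proc, which encodes the anticoagulant protein C, was the most abundant at 75.8 CPM at day 10 and 56.7 CPM at 48 h. None of 11 fibrin and fibrinogen receptors passed in either set. The most abundant, Itgb1, an integrin subunit, was at 321 CPM at day 10 and 228 CPM at 48 h in injured cells (log2 fold change 0.04, SE 0.27, edgeR adjusted p = 0.950). Of 8 proteins with a fibrinogen-like domain 1 rose in injured cells, Tnc, the matrix protein tenascin C, with 3.16 CPM at day 10 and no UMI at 48 h (edgeR adjusted p = 0.0431), and none of 11 passed in all proximal tubule labels. Of 15 tubule injury genes 5 rose in injured cells, led by Cd44 at 93.2 CPM at day 10 and 3.55 CPM at 48 h (log2 fold change 4.46, SE 0.41, edgeR adjusted p = 0.00820) and Vcam1 at 384 CPM at day 10 and 17.6 CPM at 48 h (log2 fold change 3.94, SE 0.48, edgeR adjusted p = 0.0114). Cd44 was the only 1 of the 15 to pass in all proximal tubule labels (log2 fold change 3.12, edgeR adjusted p = 0.00246). Without the injured and cycling labels 1 of the 15 rose and 2 fell. Vcam1 was at 28.0 CPM at day 10 and 3.35 CPM at 48 h (log2 fold change 3.08, SE 0.57, edgeR adjusted p = 0.0331). Krt20, a keratin, was at 1.47 CPM at day 10 and 4.98 CPM at 48 h (log2 fold change -1.93, edgeR adjusted p = 0.0401), and Spp1 at 5761 CPM at day 10 and 19190 CPM at 48 h (log2 fold change -1.83, edgeR adjusted p = 0.0314).

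These list calls were set against the fits that leave out 1 mouse each. In injured cells Cd44 kept an adjusted p under 0.05 in all 5 of them, with edgeR adjusted p of 0.00822 to 0.0323, as did Vcam1, with 0.00398 to 0.0377. Each of the other list genes named as rising or falling lost its call without at least 1 mouse and kept its direction in each of these fits in which it was tested. Tnc had no test in injured cells without mouse 5. Without mouse 2 the edgeR adjusted p in injured cells was 0.177 for Plat, 0.149 for Thbs1, 0.122 for F2r, 0.174 for Saa3 and 0.122 for Tnc, while Cp passed there (0.0428) and did not pass without mouse 3 (0.0909), mouse 4 (0.0775) or mouse 5 (0.0733). Saa3 and F2r passed in none of the 5 fits and Tnc in none of the 4 that tested it. In all proximal tubule labels Cd44 passed in all 5 fits, whereas Thbs1 and Saa3 passed in none. Without the injured and cycling labels Plau did not pass without mouse 1 (0.101), mouse 2 (0.200) or mouse 3 (0.0725), Saa1 did not pass without mouse 2 (0.0823), and Lrg1 did not pass without mouse 1 (0.221), mouse 4 (0.108) or mouse 5 (0.163). In the same set Vcam1 passed only without mouse 4 (0.00860), Krt20 only without mouse 4 (0.0481) and Spp1 only without mouse 2 (0.0236). In cells without immune transcripts Cd44 was at a log2 fold change of 1.77 in all proximal tubule labels (edgeR adjusted p = 0.442). In injured cells the same filter left 17, 1 and 8 cells in mice 3, 4 and 5. There Cd44, Plat, Thbs1, F2r, Saa3 and Tnc had no test, so the part of immune transcripts in their rises was not tested. Cp was at 2.05 and Vcam1 at 4.35 in these few cells.

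Likeness was taken over 84 sums of a label in a mouse, which share libraries and cell types, so the values are descriptions. For Fga the most alike of 12625 genes were Fgg (Pearson r = 0.94, Spearman rho = 0.90), Fgb (r = 0.89, rho = 0.86), Slc13a1, a sodium-sulfate cotransporter of the proximal tubule (r = 0.87, rho = 0.79), Timd2 (r = 0.83, rho = 0.75) and Serpinf2, which encodes the plasmin inhibitor α2-antiplasmin (r = 0.83, rho = 0.72). For Fgb they were Fga, Slc13a1 (r = 0.86, rho = 0.79), Fgg (r = 0.85, rho = 0.76), Timd2 (r = 0.84, rho = 0.77) and Slc51a, a subunit of a bile acid exporter (r = 0.83, rho = 0.71). For Fgg they were Fga, Slc13a1 (r = 0.89, rho = 0.83), Fgb, Slc17a1, a phosphate and urate transporter (r = 0.84, rho = 0.77), and Amn, a partner of cubilin in endocytosis (r = 0.84, rho = 0.75). Slc13a1 stood at 1453, 579 and 1311 CPM in injured cells at day 10 and at 2208 and 504 CPM at 48 h, so that mouse 1 was highest and mouse 2 lowest there too.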

How the data were processed

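Single-cell RNA-seq (10x Genomics Single Cell 3′ v3.1) of 5 kidneys was used. The authors deposited raw UMI counts per gene and cell barcode for each library, and a table with each cell's label and its percent of mitochondrial UMIs. The submitters' processing notes name Cell Ranger 6.0.2, Seurat 4.0.5 and mm10, whereas the matrix headers give Cell Ranger 6.0.0. Cells listed in the table were kept. Total counts per library were 57375234 to 78351722 UMIs at day 10 and 45887945 and 60583527 at 48 h. Steps on doublets or free RNA are not given in the sources used here, and none was added. The 3 genes and all gene lists were chosen with earlier results of these data known.

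UMIs were summed per mouse and cell set and tested with edgeR 4.0.16 (filterByExpr, TMM, glmQLFit, glmQLFTest, Benjamini-Hochberg over all genes), with DESeq2 1.42.0 as an alternative. Each mouse is 1 replicate, and the difference between label sets was fitted with mouse as a term. A set needed 20 cells per mouse, or 10 for the injured label. The tests were tested on simulated data. Binomial intervals are exact at 95% and cover counting error only. Cells were thinned to 2000 or 1000 UMIs where stated. Co-detection was set beside the number expected from the single shares among cells of like depth. Likeness used log2(CPM + 1) and genes with at least 500 UMIs. From each gene list the text names up to 2 rises and 2 falls past the threshold, or else the member with the highest mean CPM. Other list members named were chosen after their values were seen. Sums and figures used Python 3.11.15.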

Additional observations from a re-analysis of the deposited data

How the results depend on the processing

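No paired analysis was possible because the groups share no replicate numbers. Leaving out each mouse in turn moved the log2 fold changes of day 10 over 48 h over the ranges that follow, with the extremes mostly without mouse 1 and without mouse 2. All proximal tubule labels gave -1.23 to 2.22 for Fga, -2.97 to 1.02 for Fgb and -1.30 to 1.88 for Fgg. Injured proximal tubule gave -0.86 to 3.16 for Fga, -2.45 to 1.89 for Fgb and -0.89 to 2.76 for Fgg. Proximal tubule without the injured and cycling labels gave -0.73 to 1.58 for Fga, -2.62 to 0.26 for Fgb and -0.90 to 1.29 for Fgg. All cells gave -1.53 to 2.36 for Fga, -3.27 to 1.15 for Fgb and -1.55 to 2.06 for Fgg. S1 cells gave -0.52 to 1.86 for Fga, -2.24 to 0.47 for Fgb and -0.55 to 1.76 for Fgg. Lrp2-positive S2/3 cells gave -1.60 to 1.06 for Fga, -3.92 to -0.55 for Fgb and -2.00 to 0.48 for Fgg. Lrp2-negative S2/3 cells gave -0.24 to 3.69 for Fga and -1.04 to 2.35 for Fgg. Thick ascending limb gave 0.0029 to 3.36 for Fga and -0.041 to 3.60 for Fgg. Descending thin limb gave -0.96 to 7.29 for Fga, -0.81 to 7.72 for Fgb and -0.66 to 2.61 for Fgg. TEC gave -1.81 to 1.80 for Fgg. Distal tubule and principal cells gave -1.02 to 4.36 for Fga and -0.53 to 3.62 for Fgg. Injured distal tubule gave 0.05 to 7.65 for Fga and 0.17 to 4.20 for Fgg. Intercalated cells gave -1.06 to 6.97 for Fga and -0.22 to 8.40 for Fgg. Endothelial cells gave -1.88 to 1.77 for Fga and -2.23 to 1.96 for Fgg. Interstitial cells gave -2.66 to 6.22 for Fgg. Immune cells gave -1.14 to 3.43 for Fga, -3.52 to 0.89 for Fgb and -1.20 to 2.59 for Fgg. The difference between the injured and the other proximal tubule labels gave -0.17 to 1.56 for Fga, 0.12 to 1.60 for Fgb and -0.016 to 1.47 for Fgg. The Fgb share of the chain UMIs kept its direction in each of these runs, at -19.7 to -11.7 percentage points in injured cells and -19.98 to -10.03 in all proximal tubule labels.

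Other settings moved fold changes near 0 across it. In injured cells Fga was at -0.32 with cells thinned to equal depth and -1.03 with only cells under 20% mitochondrial UMIs, and Fgg at 0.0022 with DESeq2 size factors and 0.0055 with DESeq2. Without the injured and cycling labels Fga was at -0.0023 with DESeq2, -0.44 under 20% mitochondrial UMIs and -0.12 in cells without immune transcripts, and Fgg at 0.089 when thinned. The difference between label sets was -0.28 for Fga and -0.12 for Fgg when thinned, and -0.22 for Fga under 20% mitochondrial UMIs. Without a filter on low counts Fgb passed in injured cells (-1.56) and without the injured and cycling labels (-1.78), and the difference between label sets passed for Fgb (0.65) and Fgg (0.61). In injured cells the Fgb share differed by -3.98 percentage points under 20% mitochondrial UMIs, and without immune transcripts it could not be given because mouse 4 had no chain UMI left. The share of injured cells with Fga differed by 1.15 percentage points at 1000 UMIs per cell. The cause of these shifts was not tested. In injured cells 726 of 12353 genes passed with edgeR, 1303 of the same 12353 with DESeq2, and 2402 of 18892 with edgeR and no filter. In all proximal tubule labels the counts were 447, 1203 and 1143, without the injured and cycling labels 351, 607 and 1023, in all cells 321, 1915 and 687, and for the difference between label sets 966, 611 and 1639. The injured cells of mouse 2 held 321 chain UMIs, which limits the precision of its values.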
